A study of Homo sapiens and Mus musculus with 8 samples.

Results

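The comparison described here set a clone of B16N cells that overexpresses Orai1 against B16N cells exposed to UV for 2 weeks, gene by gene. B16N is a mouse melanoma line. Both samples had been compared with the same untreated B16N sample, and the value of each gene is its log2 change in the clone minus its log2 change after 2 weeks of UV, so that the level of the common control cancels. A gene entered when its symbol had a row in the authors' deposited tables for both changes and shared its values with no other symbol in either table. Of 15966 symbols with a value in any of the 3 mouse tables, 14105 were in both tables, 3887 of these shared values with another symbol, and 10218 were compared.

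The study profiled RNA of 8 melanoma cell samples, 1 per group, of which 4 were B16N. The control was wild-type, without treatment and with the time label of day 0. The UV sample was wild-type with the label of week 2, and a further UV sample with that of week 5. The clone was made by transfection with Orai1 joined to the fluorescent protein CFP, selection with G418, sorting by fluorescence and growth from single cells, with the time label of day 0. It is 1 clone, so what belongs to Orai1 and what belongs to transfection, selection and descent from a single cell cannot be told apart. The labels also differ in time between clone and UV sample, which cannot be separated from the treatment. With 1 sample per group there is no replicate check, and every test below compares these libraries, not the conditions. Each difference is therefore given with its standard error (SE) and with whether it was called, and without a p-value of its own. In RNA of whole cultures, fewer cells of a type and less RNA per cell cannot be told apart.

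Orai1 forms the pore of the store-operated Ca2+ channel of the plasma membrane. When the endoplasmic reticulum loses Ca2+, the sensor proteins STIM1 and STIM2 gather under the membrane and open the pore, and the Ca2+ that enters can activate the phosphatase calcineurin, which sends NFAT transcription factors to the nucleus. In melanocytes, UV raises pigment synthesis through MC1R, cAMP and the transcription factor MITF, and damages DNA. The study's title concerns suppressed Ca2+ signalling and melanoma progression, and the clone and the UV sample are, by their labels, cases of raised channel expression and of UV exposure in the same line.

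Between clone and UV sample, 1351 genes were called at a Benjamini-Hochberg adjusted p under 0.05 from a two-sided normal test of the difference, which was 13.2% of all genes compared. Of these, 536 were higher in the clone (5.25% of all genes) and 815 were lower (7.98%). Without adjustment 2250 genes had a p under 0.05. The difference was at least 2-fold in 486 called genes (4.76%), 185 higher and 301 lower. The median difference over all genes was 0.0037 on the log2 scale. In the deposited tables themselves, 10.3% of genes were called higher and 11.6% lower in the clone against control, and 3.13% higher and 4.55% lower after 2 weeks of UV. The clone's own change was larger than the UV change in 1137 of the 1351 called genes (84.2%), and in 64.6% of all genes compared. The share called went with the SE. Among 4542 genes with an SE of the difference of at most 0.3, 23.1% were called and the smallest called difference was 0.28. Among the 1701 genes with an SE above 1, 2.76% were called and no called difference was below 2.75.

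**Figure D1:**
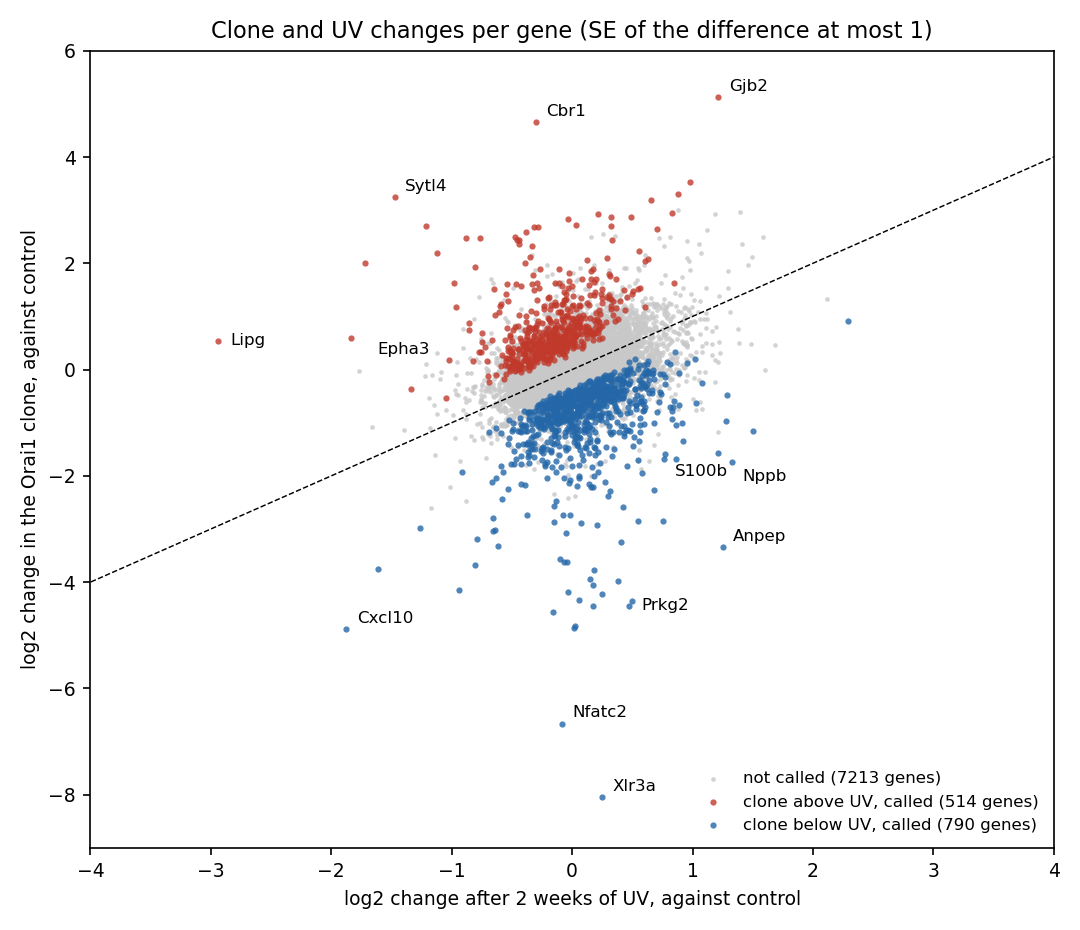
Each point is a gene with an SE of the difference of at most 1, by its log2 change against control after 2 weeks of UV (horizontal) and in the Orai1 clone (vertical, on another scale). The dashed line marks equal changes, and the 514 red and 790 blue points are genes called higher and lower in the clone than in the UV sample. Nfatc2, Xlr3a and Prkg2 lie far below the line at UV changes from -0.09 to 0.47, whereas Lipg and Epha3 lie left of it at clone changes of 0.54 and 0.18.

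Of 30 genes listed for Ca2+ entry, 15 could be compared, and 1 was called, higher in the clone (6.67%, beside 5.25% higher over all genes). With the covariance of the common control taken off, 3 were called. Orai2, another pore-forming family member, changed by 0.56 ± 0.13 (SE) in the clone and by -0.04 ± 0.13 after UV, a difference of 0.61 ± 0.18 (95% interval 0.25 to 0.96) or 1.52-fold. At 5 weeks of UV its deposited change was 0.49 ± 0.15. Stim2, the sensor of small losses of store Ca2+, differed by 0.51 ± 0.50 (interval -0.46 to 1.48) and was not called, with an interval that holds both no difference and a rise of more than 2-fold. Saraf, an inhibitor of the channel, differed by -0.49 ± 0.21 and was not called. Orai1 and Stim1 are not analysed here, and the label of Orai1 overexpression was therefore not checked against its own RNA.

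Downstream of the channel the largest difference was that of Nfatc2, which encodes an NFAT transcription factor. It changed by -6.66 ± 0.33 in the clone and by -0.09 ± 0.10 at 2 weeks of UV, and by -0.25 ± 0.16 at 5 weeks. The difference was -6.58 ± 0.34. The tables hold no levels, so how much Nfatc2 RNA the clone had left is not known. Of 20 calcineurin and NFAT genes compared, 4 were lower in the clone and 0 higher (20% called, beside 13.2% over all genes), and the median difference was 0.09. Beside Nfatc2 these were Dyrk1a, a kinase that phosphorylates NFAT for export from the nucleus (-1.24 ± 0.25), Camkk2, a Ca2+/calmodulin-dependent kinase kinase (-0.93 ± 0.16), and Rcan1, a calcineurin inhibitor and NFAT target (-0.49 ± 0.15). Nfatc1 (-1.33 ± 0.54) and Nfatc3 (0.73 ± 0.49) were not called. Of the 20 genes, 19 had an SE of at most 0.5 in both tables, a limit within which 1352 of 7533 genes were called, so the count is near that of comparable genes.

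Among 19 genes of Ca2+ stores, 3 were lower and 1 higher (21.1% called, beside 13.2% over all genes). Itpr2, an inositol trisphosphate receptor that releases Ca2+ from the endoplasmic reticulum, changed by -3.08 ± 0.23 in the clone and by -0.05 ± 0.15 after 2 weeks of UV, a difference of -3.03 ± 0.27 or 8.16-fold. At 5 weeks of UV its deposited change was 1.80 ± 0.20, the opposite sign to that of the clone. The Ca2+-binding proteins of the secretory pathway Calu (-0.79 ± 0.18) and Rcn1 (-0.56 ± 0.13) were lower too. Mcu, the pore of the mitochondrial Ca2+ uniporter, was higher by 0.77 ± 0.26, from 0.22 ± 0.17 in the clone and -0.55 ± 0.19 after UV. Of 7 S100 genes, which encode Ca2+-binding proteins, S100b and S100a10 were lower (28.6% called, beside 13.2% over all genes). S100b, a protein used as a melanoma marker, changed by -1.68 ± 0.16 in the clone and by 0.77 ± 0.12 after UV (difference -2.45 ± 0.20, 5.45-fold). S100a10, a partner of annexin A2, differed by -1.28 ± 0.18.

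In the largest negative differences among genes with an SE of at most 1, the clone's change was the larger, although Anpep and Prkg2 were also called higher after UV against control. Xlr3a differed by -8.30 ± 0.75, Nfatc2 as above and Prkg2, a cGMP-dependent protein kinase, by -4.92 ± 0.19. In Prkg2 the clone's change was -4.45 ± 0.16 and the UV change 0.47 ± 0.11. The next were Lcmt2, a tRNA-modifying enzyme (-4.87 ± 0.42), Zfp469, a zinc finger protein (-4.85 ± 0.44), Ssh3, a member of the slingshot family of phosphatases (-4.85 ± 0.86), Tgfb1, the growth factor (-4.62 ± 0.97), and Anpep, aminopeptidase N (-4.60 ± 0.74). Tubb2a-ps2, Gpc6, Eda2r, Wfikkn2, Bmyc, Bcan and DXBay18 followed, between -4.47 and -4.09. Gpc6 and Bcan encode proteoglycans and Eda2r a receptor of the tumour necrosis factor family. Xlr3a has close copies and Tubb2a-ps2 is a pseudogene, and reads of such genes may have been split among copies, so both values are uncertain.

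The largest positive differences were led by Cbr1, a carbonyl reductase, at 4.96 ± 0.71, from 4.66 ± 0.33 in the clone and -0.30 ± 0.63 after 2 weeks of UV. At 5 weeks of UV, Cbr1 had a deposited change of 4.08 ± 1.06. Gjb2, a connexin of gap junctions, changed by 5.13 ± 0.14 in the clone and by 1.22 ± 0.16 after UV, so that it was called higher in both against control and still differed by 3.91 ± 0.21. Sytl4, an effector of Rab27 in granule release, differed by 4.72 ± 0.93, Rflnb by 3.92 ± 0.97, and Plxna4, a semaphorin receptor, by 3.72 ± 0.998. Sdc2, the cell-surface proteoglycan syndecan, had the lowest SE of the rest (2.97 ± 0.25). Rbms3, Npnt, Msrb3, Otulinl, Rragb, Lurap1l, Gpr85 and 3110070M22Rik lay between 2.88 and 3.36. Lipg, endothelial lipase, was unlike the others: its change was 0.54 ± 0.45 in the clone and -2.94 ± 0.86 after UV, so its difference of 3.48 ± 0.97 came from the UV side.

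Some genes were called against control in both deposited tables with opposite signs, and the 10 largest differences in each direction are named here. Both changes share the control sample, and each gene's own values are therefore given side by side. Lower in the clone and higher after UV were Nppb, the natriuretic peptide BNP (-1.74 ± 0.20 and 1.33 ± 0.13), Kcnk2, a potassium channel (-1.57 ± 0.38 and 1.21 ± 0.26), Anpep (-3.35 ± 0.67 and 1.25 ± 0.33), Col5a3, a fibrillar collagen chain (-1.35 ± 0.23 and 0.92 ± 0.17), Uggt2, a glycoprotein-folding sensor (-1.59 ± 0.35 and 0.77 ± 0.26), and A130040M12Rik (-1.16 ± 0.37 and 1.498 ± 0.25), beside S100b and Prkg2. Cyba, a subunit of NADPH oxidase, and the predicted gene Gm5152 had the same signs, but with an SE above 1 no size is given. The differences of Nppb (-3.07 ± 0.24) and Kcnk2 (-2.78 ± 0.46) were thus made up of both sides.

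Higher in the clone and lower after UV were Cdk14, a cyclin-dependent kinase (1.19 ± 0.26 and -0.97 ± 0.33), Lin28b, an RNA-binding protein that blocks let-7 maturation (0.88 ± 0.23 and -0.86 ± 0.29), Tlcd4 (1.30 ± 0.11 and -0.29 ± 0.09), Hmgn5, a nucleosome-binding protein (1.02 ± 0.11 and -0.44 ± 0.10), and Lgalsl (0.78 ± 0.10 and -0.54 ± 0.11). Dock5, an activator of Rac, and Rps6ka6, a ribosomal S6 kinase, differed by 1.22 ± 0.21 and 1.15 ± 0.25. Marchf6, a ubiquitin ligase of the endoplasmic reticulum, and Tns3, a tensin of focal adhesions, differed by 1.13 ± 0.15 and 1.11 ± 0.15. Ski, a repressor of TGF-beta signalling, changed by 0.33 ± 0.12 in the clone and by -0.78 ± 0.09 after UV (difference 1.11 ± 0.15).

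Of 698 listed genes that could be compared in all, 165 were called, 64 higher and 101 lower, and their median difference was -0.055. The lists are described below by such counts, to be read against the shares of 5.25% higher and 7.98% lower over all genes. In the deposited changes against control of each list, the corresponding shares are 10.3% and 11.6% for the clone and 3.13% and 4.55% for UV. Because the share called went with the SE, these shares are low baselines for lists of genes with small SEs. An SE of at most 0.5 in both tables was held by 545 of the 698 listed genes and by 7533 of all 10218. Adjusted within that limit, 158 of the 545 and 1352 of the 7533 were called.

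**Figure D2:**
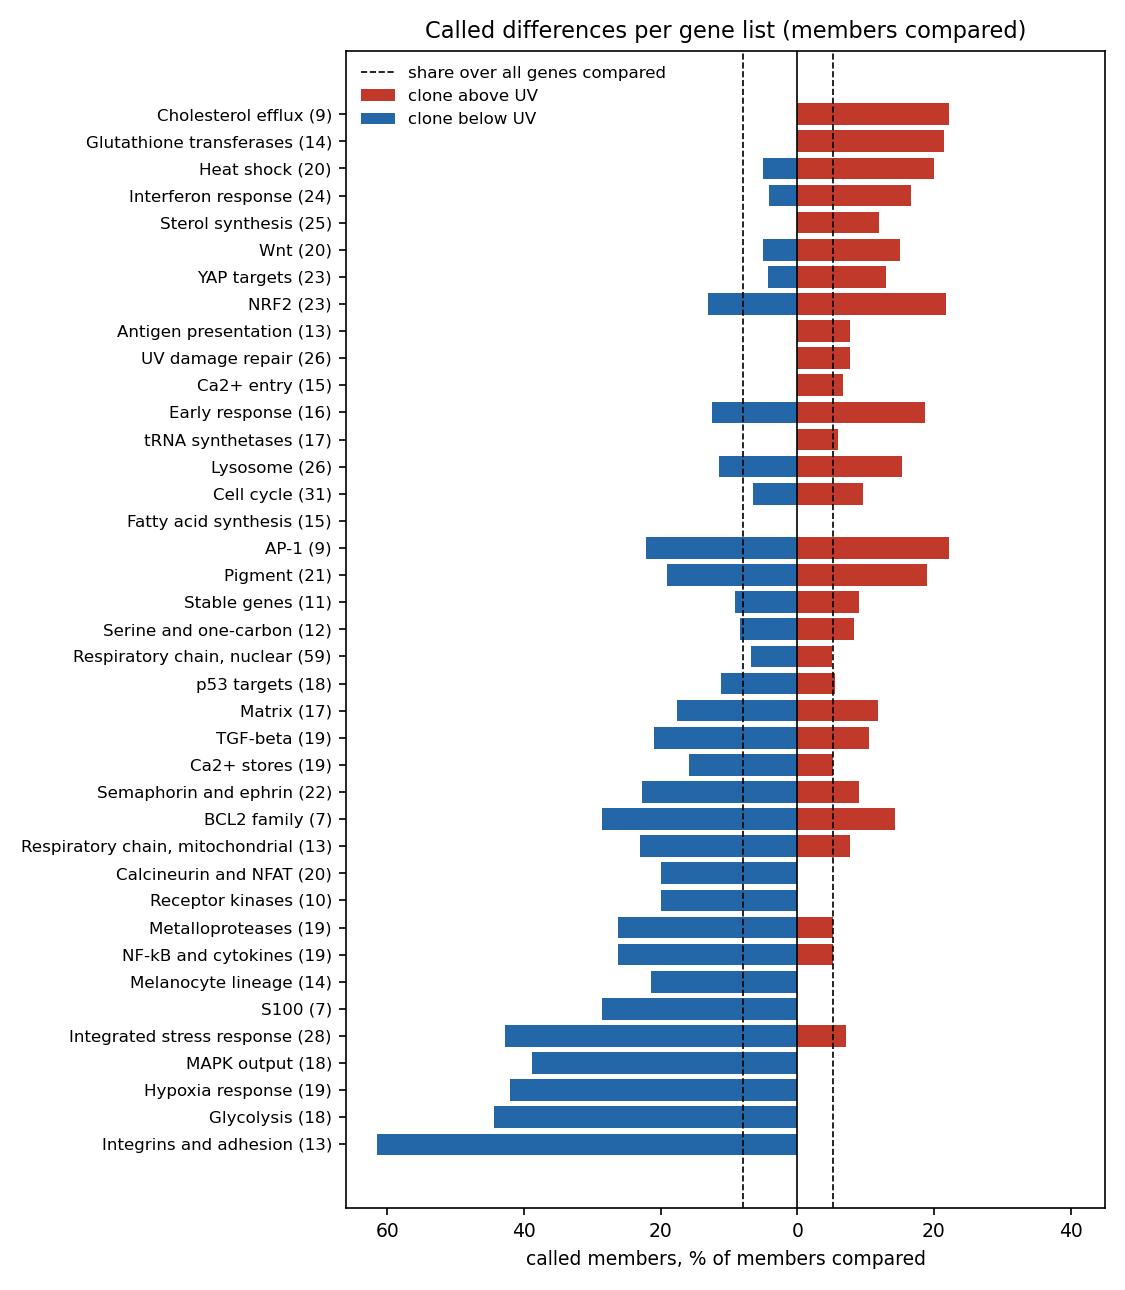
Bars give, for each list with at least 7 members compared (number in brackets), the percentage of members called higher (red, right) or lower (blue, left) in the clone than after 2 weeks of UV, ordered by the net share. Dashed lines mark the shares over all genes, 5.25% to the right and 7.98% to the left. Integrins and adhesion, glycolysis, hypoxia response and MAPK output have no red bar and lie at the bottom.

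The genes of the hypoxia response that were called between the samples were all lower in the clone. HIF-1 turns these genes on when oxygen is low, and prolyl hydroxylases of the EGLN family mark HIF for breakdown. Of 19 compared, 8 were lower and 0 higher, and 17 of 19 differences were negative (median -0.75). Against control, 7 were called lower and 1 higher in the clone, and 8 higher and 0 lower after UV. Bnip3, a mitophagy receptor, changed by -1.005 ± 0.17 in the clone and by 0.91 ± 0.23 after UV (difference -1.91 ± 0.28, 3.77-fold). Ero1a, the oxidase that forms disulphide bonds in the endoplasmic reticulum, changed by -0.91 ± 0.10 and 0.56 ± 0.09 (difference -1.47 ± 0.14). Pdk1, a pyruvate dehydrogenase kinase, changed by -0.96 ± 0.57 and 1.28 ± 0.41, and Higd1a, a mitochondrial protein, by -0.71 ± 0.23 and 0.84 ± 0.19. In each of these genes the values had opposite signs.

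Egln1 itself changed by -1.003 ± 0.11 in the clone and by 0.12 ± 0.09 after UV (difference -1.13 ± 0.14). Mxi1, an antagonist of Myc, Ndrg1 and Ddit4, an inhibitor of mTORC1, differed by -1.07 ± 0.38, -0.81 ± 0.14 and -0.75 ± 0.21. Slc2a1, the main glucose transporter, was among the 11 not called, at -0.20 ± 0.23. At 5 weeks of UV, Ero1a had a deposited change of 0.99 ± 0.13 and Ddit4 of 1.20 ± 0.21, while Bnip3 (0.32 ± 0.24), Higd1a (-0.17 ± 0.26) and Pdk1 (-0.31 ± 0.72) were within or near their SE of 0.

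The called enzymes of glycolysis, which splits glucose to pyruvate and lactate, were lower in the clone as well. Of 18 compared, 8 were lower and 0 higher, with 16 of 18 differences negative (median -0.47). The count was 5 with a fold minimum of 1.5, 4 at an adjusted p under 0.01, and 3 with a fold minimum of 2 or Bonferroni adjustment. In the clone 4 were called lower and 0 higher against control, and after UV 5 higher and 0 lower. Pgk1 changed by -1.42 ± 0.16 in the clone and by 0.04 ± 0.13 after UV, whereas Pkm changed by 0.00 ± 0.10 and 0.61 ± 0.08, so the same call came from the clone in the first and from UV in the second. Pfkp, a phosphofructokinase, had both, at -1.14 ± 0.18 and 0.45 ± 0.16 (difference -1.59 ± 0.24, 3.01-fold). Hexokinases Hk1 (-0.59 ± 0.17) and Hk2 (-0.53 ± 0.17), lactate dehydrogenase Ldha (-0.41 ± 0.15) and aldolase Aldoa (-0.39 ± 0.14) differed less. Pdk1 is in both lists, and the lists are not independent of one another.

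**Figure D3:**
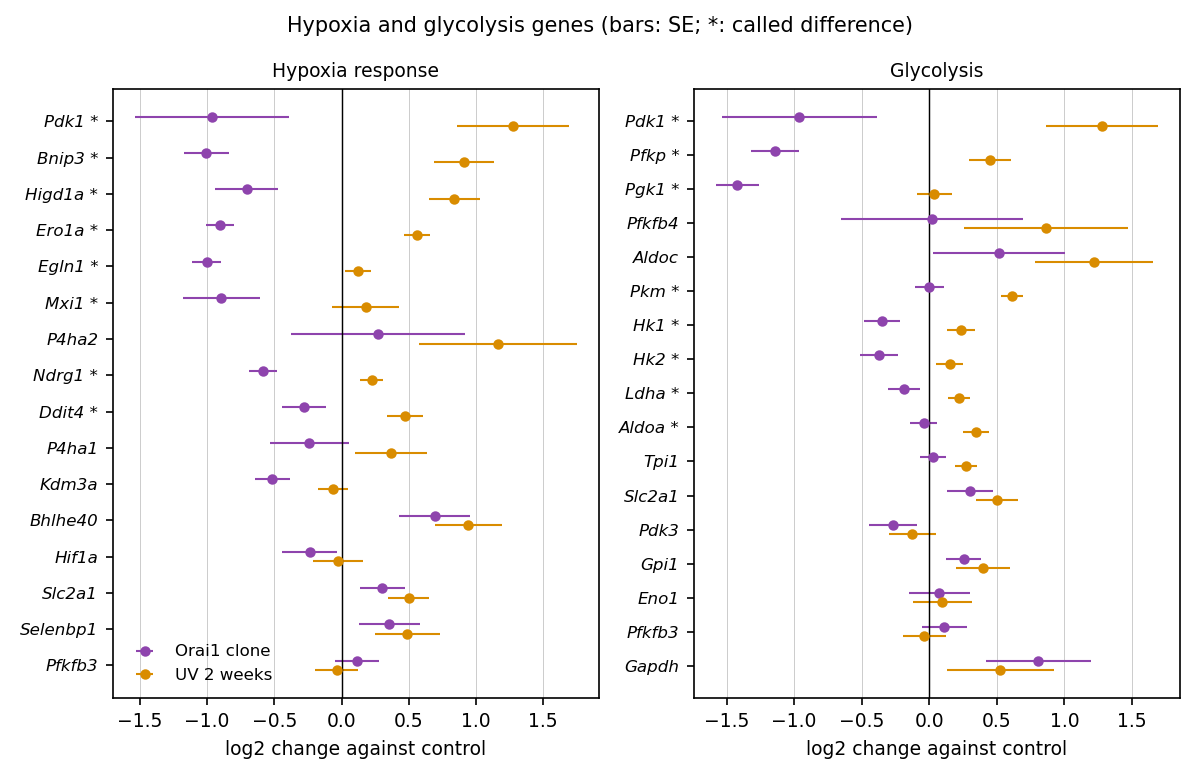
Points are deposited log2 changes against control in the Orai1 clone (purple) and after 2 weeks of UV (orange) for hypoxia response and glycolysis genes with an SE of at most 1 in both tables, and bars are SEs. An asterisk marks a called difference. Bnip3, Ero1a, Higd1a and Pdk1 have their purple points left and orange points right of 0, and Pkm differs through the orange point alone.

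The called readouts of the RAS-MAPK pathway were likewise all lower in the clone. This pathway, switched on by BRAF and RAS mutations in many melanomas, turns on its own inhibitors, the Sprouty proteins and the dual-specificity phosphatases (Dusp), so that their RNA is a common measure of its output. Of 18 compared, 7 were lower and 0 higher, 15 of 18 differences were negative, and the median was -0.62. The clone had 8 called lower and 2 higher against control, and the UV sample 2 higher and 0 lower. Ccnd1, cyclin D1, changed by -1.83 ± 0.12 in the clone and by 0.17 ± 0.11 after UV (difference -1.996 ± 0.16, 3.99-fold). Spry4 differed by -1.57 ± 0.55, Spry2 by -1.51 ± 0.24, Etv5, an ETS factor, by -1.45 ± 0.32, and Dusp4 by -1.20 ± 0.20. Dusp4 was the only one of the 7 called higher after UV against control, at 0.60 ± 0.13 against -0.60 ± 0.15 in the clone. Dusp16 (-0.74 ± 0.15) and Dusp6 (-0.67 ± 0.17) differed least of the called members.

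Early response genes, which growth factors and stress switch on within minutes, were called in both directions. Among 9 AP-1 subunits 2 were higher and 2 lower. Junb was higher by 0.97 ± 0.20 and Fosb was called higher with an SE above 1. Jun (-0.66 ± 0.14) and Jund (-0.73 ± 0.15) were lower. Of 16 further early response genes, Ccn1 (1.67 ± 0.24), Zfp36 (1.03 ± 0.32) and Srf (0.75 ± 0.16) were higher, and Ier5l (-0.84 ± 0.25) and Myc (-0.73 ± 0.17) lower. Ccn1, a matricellular protein that YAP also switches on, changed by 2.22 ± 0.10 in the clone and by 0.56 ± 0.22 after UV. Among 23 YAP targets and regulators 3 were higher and 1 lower: Yap1 itself (0.48 ± 0.11), Nf2 (0.40 ± 0.12), Ccn1, and on the lower side Axl.

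Axl is a receptor tyrosine kinase tied to invasive and drug-tolerant melanoma states. It changed by -2.75 ± 0.15 in the clone, by -0.37 ± 0.11 at 2 weeks of UV and by -1.48 ± 0.19 at 5 weeks, and the difference between clone and 2 weeks was -2.37 ± 0.19 (5.17-fold). Ephb2 (-1.84 ± 0.51) was the other of 10 receptor kinases called, and 0 were higher. The melanocyte lineage list, which also holds Axl, had 3 of 14 lower and 0 higher: Axl, Mc1r and Pax3. Since Axl is tied to invasive states, the count is not read as a loss of lineage. Mc1r, the melanocortin receptor through which UV raises pigment, changed by -1.06 ± 0.10 in the clone and by 0.41 ± 0.08 after UV (difference -1.47 ± 0.13, 2.77-fold). Pax3, a factor upstream of Mitf, differed by -0.50 ± 0.13. For Mitf the changes were 0.39 ± 0.49 and 0.38 ± 0.51, and a difference of 0.00 ± 0.70 leaves room for more than a 2-fold difference either way.

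Adhesion genes had the highest share of called members of any list with at least 7 compared. Of 13 integrins and adhesion receptors, 8 were lower in the clone and 0 higher (median -0.56), and the clone had 7 called lower and 0 higher against control. With a fold minimum of 2 or Bonferroni adjustment 2 of them were called. Ncam1, a neural cell adhesion molecule, changed by -2.74 ± 0.23 in the clone and by -0.07 ± 0.15 after UV (difference -2.66 ± 0.27, 6.34-fold). Mcam, a melanoma cell adhesion molecule, changed by -1.61 ± 0.14 and 0.19 ± 0.12 (difference -1.80 ± 0.19, 3.47-fold). Itgb5 (-0.77 ± 0.24), Jam3 (-0.71 ± 0.18), Cdh19 (-0.59 ± 0.17), Itgb1 (-0.56 ± 0.18), the tetraspanin Cd81 (-0.48 ± 0.14) and the hyaluronan receptor Cd44 (-0.36 ± 0.12) differed less.

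**Figure D4:**
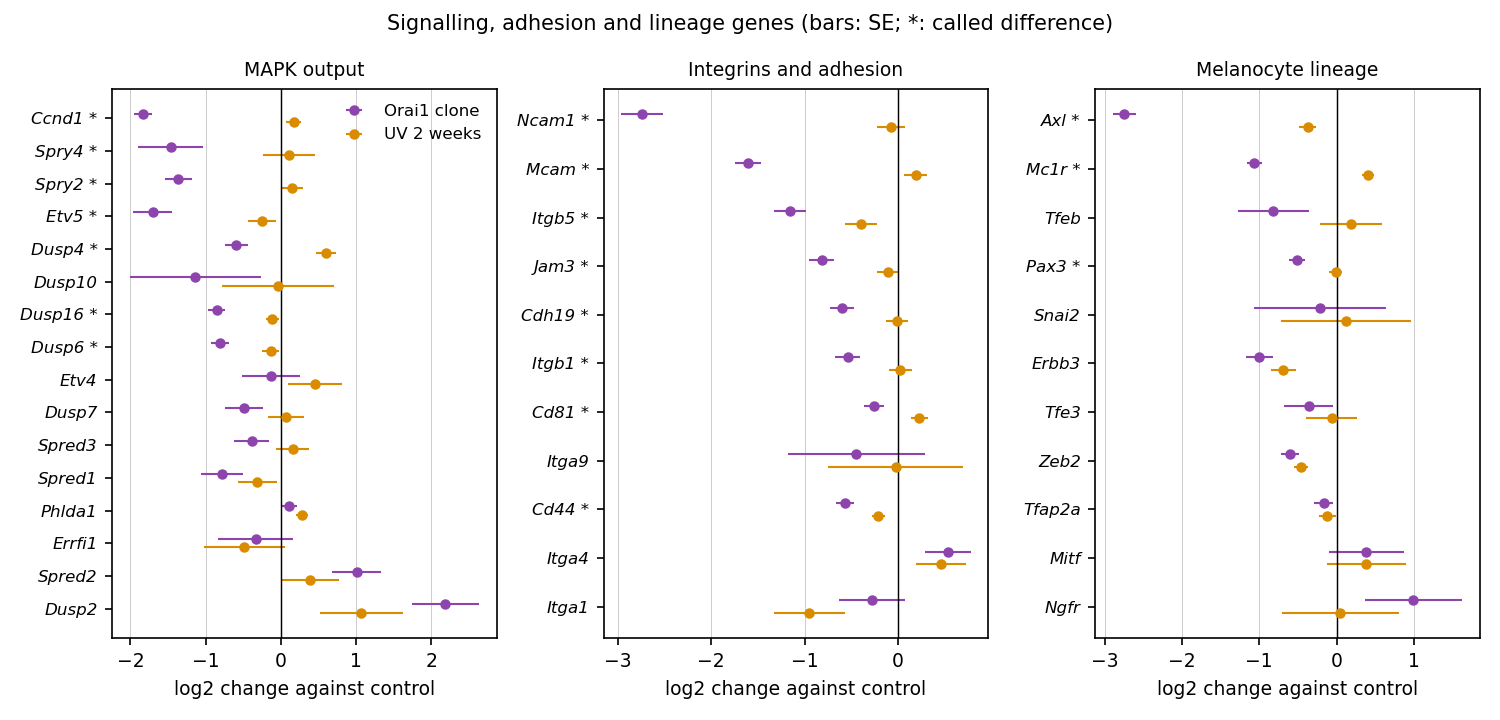
Deposited log2 changes against control in the Orai1 clone (purple) and after 2 weeks of UV (orange), with SEs as bars, for MAPK output, adhesion and melanocyte lineage genes with an SE of at most 1 in both tables. An asterisk marks a called difference. In the called genes the purple points lie left of the orange ones, by different amounts, while those of Mitf coincide.

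Matrix genes went both ways. Of 17 compared, 2 were higher and 3 lower. Col4a1, a chain of basement membrane collagen, was called higher with an SE above 1, and Fbln1, fibulin, was higher by 1.68 ± 0.47. Postn, periostin (-3.61, with an SE just under 1), Col12a1 (-3.46 ± 0.87) and Col5a1 (-1.90 ± 0.39) were lower, and Col5a1 had values of -1.04 ± 0.31 in the clone and 0.86 ± 0.23 after UV. The median of the list was -0.86 over the 17 genes and -0.13 over the 8 with an SE of at most 0.5 in both tables. Among 19 metalloproteases and their inhibitors, 5 were lower and 1 higher. Adam12 was called lower with an SE above 1, and so were Adam23 (-1.78 ± 0.50), Adamts1 (-1.30 ± 0.13) and Timp2, an inhibitor (-0.76 ± 0.11). Adam15 was higher by 1.28 ± 0.38.

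In the TGF-beta list 2 of 19 were higher and 4 lower. The growth factor Tgfb1 was named above, Tgfb2 differed by -1.002 ± 0.33, and Ltbp4, which holds the latent factor in the matrix, changed by -1.68 ± 0.49 in the clone and by 0.86 ± 0.33 after UV (difference -2.54 ± 0.59). Smad4, the common signal transducer, was lower (-0.47 ± 0.16) and the receptor Tgfbr2 higher (0.77 ± 0.19), beside Ski. Of 20 Wnt genes 3 were higher, all ligand or receptor genes: Wnt5b (2.15 ± 0.74), Fzd9 (2.15 ± 0.51) and Fzd1 (0.82 ± 0.22), and Ccnd1 was the 1 lower. The Wnt median was 0.43, and -0.16 over the 13 genes with an SE of at most 0.5. Guidance genes, the semaphorins, plexins, ephrins and Slit proteins, had 2 of 22 higher and 5 lower. Epha3, an ephrin receptor, changed by 0.18 ± 0.16 in the clone and by -1.03 ± 0.14 after UV (difference 1.20 ± 0.21), whereas Plxnc1, a semaphorin receptor, changed by -1.55 ± 0.14 and -0.36 ± 0.11 (difference -1.19 ± 0.18). Slit2 was called higher with an SE above 1, and Ephb2, given above, and Robo1 (-1.11 ± 0.30) were lower too.

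The chemokines Cxcl10 and Ccl5 were lower in the clone than after UV, while 4 genes of the interferon response were higher. Cxcl10, a chemokine that draws T cells, was lower than control in both, by -4.89 ± 0.15 in the clone and -1.87 ± 0.12 after UV, and differed by -3.01 ± 0.19 (8.06-fold). Ccl5, another T-cell chemokine, changed by -3.32 ± 0.43 and -0.62 ± 0.30 (difference -2.71 ± 0.53). Of 19 NF-kB and cytokine genes 5 were lower, also Il1rap (-1.35 ± 0.40), Tgfb2 and Birc3 (SE above 1), and Mif was the 1 higher (1.02 ± 0.25). Of 24 interferon response genes 4 were higher and 1, Cxcl10, lower, with a median of 0.45, or 0.10 over the 11 with an SE of at most 0.5. Isg15, a ubiquitin-like modifier, changed by 0.75 ± 0.26 in the clone and by -0.86 ± 0.34 after UV (difference 1.61 ± 0.43). Ddx58, the RNA sensor RIG-I, differed by 1.43 ± 0.32, Rsad2 by 1.15 ± 0.29 and Ifi27 by 0.93 ± 0.30. In antigen presentation, 1 of 13 was higher, Psme1 of the proteasome activator (0.81 ± 0.22), and 0 lower.

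More pigment genes were called higher than lower against control in both samples, by amounts that differed between them. Melanin is made in melanosomes by tyrosinase (Tyr), Tyrp1 and dopachrome tautomerase (Dct), and the transporters Slc45a2 and Slc24a5 set the conditions inside. Of 21 compared, 8 were called higher and 2 lower in the clone, and 10 higher and 1 lower after UV. Between the samples 4 were higher and 4 lower in the clone (median -0.01). Of the 3 enzymes, Dct and Tyr were lower in the clone. Dct changed by -0.61 ± 0.09 in the clone and by 0.72 ± 0.08 after UV (difference -1.33 ± 0.12, 2.52-fold), and Tyr by 0.12 ± 0.14 and 0.95 ± 0.10 (difference -0.83 ± 0.17, 1.78-fold). Tyrp1 was not called, at -0.21 ± 0.14. At 5 weeks of UV the deposited changes were 0.85 ± 0.15 for Dct and 1.32 ± 0.15 for Tyr, on the side of the sample at 2 weeks.

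The transporters differed the other way. Slc45a2 changed by 1.64 ± 0.11 in the clone and by 0.84 ± 0.11 after UV, and Slc24a5 by 1.53 ± 0.11 and 0.57 ± 0.11, with differences of 0.79 ± 0.15 and 0.96 ± 0.16. Mlana, a melanosome protein, was higher by 0.49 ± 0.14 and Hps5, of organelle biogenesis, by 0.63 ± 0.21. Rab32, a small GTPase that brings the enzymes to melanosomes, changed by -1.48 ± 0.12 in the clone and by 0.19 ± 0.09 after UV (difference -1.67 ± 0.15, 3.17-fold). Gpnmb, a melanosome and lysosome glycoprotein, differed by -0.53 ± 0.14. Pmel, the fibril protein, was higher than control in both, by 0.92 ± 0.10 and 0.70 ± 0.08, and their difference of 0.22 ± 0.12 did not pass.

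The integrated stress response list, genes of ATF4 and of protein folding in the endoplasmic reticulum, had 12 of 28 lower in the clone and 2 higher (median -0.58). Against control, 14 were called lower and 5 higher in the clone, and 3 in each direction after UV. Trib3, a pseudokinase induced by ATF4 and CHOP, was lower than control in both, by -2.11 ± 0.17 and -0.66 ± 0.14, and differed by -1.45 ± 0.22. At 5 weeks of UV Trib3 had a deposited change of 2.41 ± 0.49, and Atf5 one of 1.61 ± 0.38, against -1.05 ± 0.13 in the clone and 0.10 ± 0.11 at 2 weeks. Cebpd (-1.40 ± 0.30), Atf5 (-1.15 ± 0.17), Herpud1, of protein disposal from the endoplasmic reticulum (-1.08 ± 0.24), and Ern1, which encodes the sensor IRE1 (-0.88 ± 0.30), were lower. Hspa5, the main chaperone BiP, changed by -0.24 ± 0.09 in the clone and by 0.43 ± 0.07 after UV (difference -0.67 ± 0.11). Xbp1, the transcription factor whose RNA IRE1 splices, was higher by 1.38 ± 0.23 (1.39 ± 0.15 in the clone and 0.01 ± 0.18 after UV), and Atf6, a folding sensor, by 0.54 ± 0.16.

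**Figure D5:**
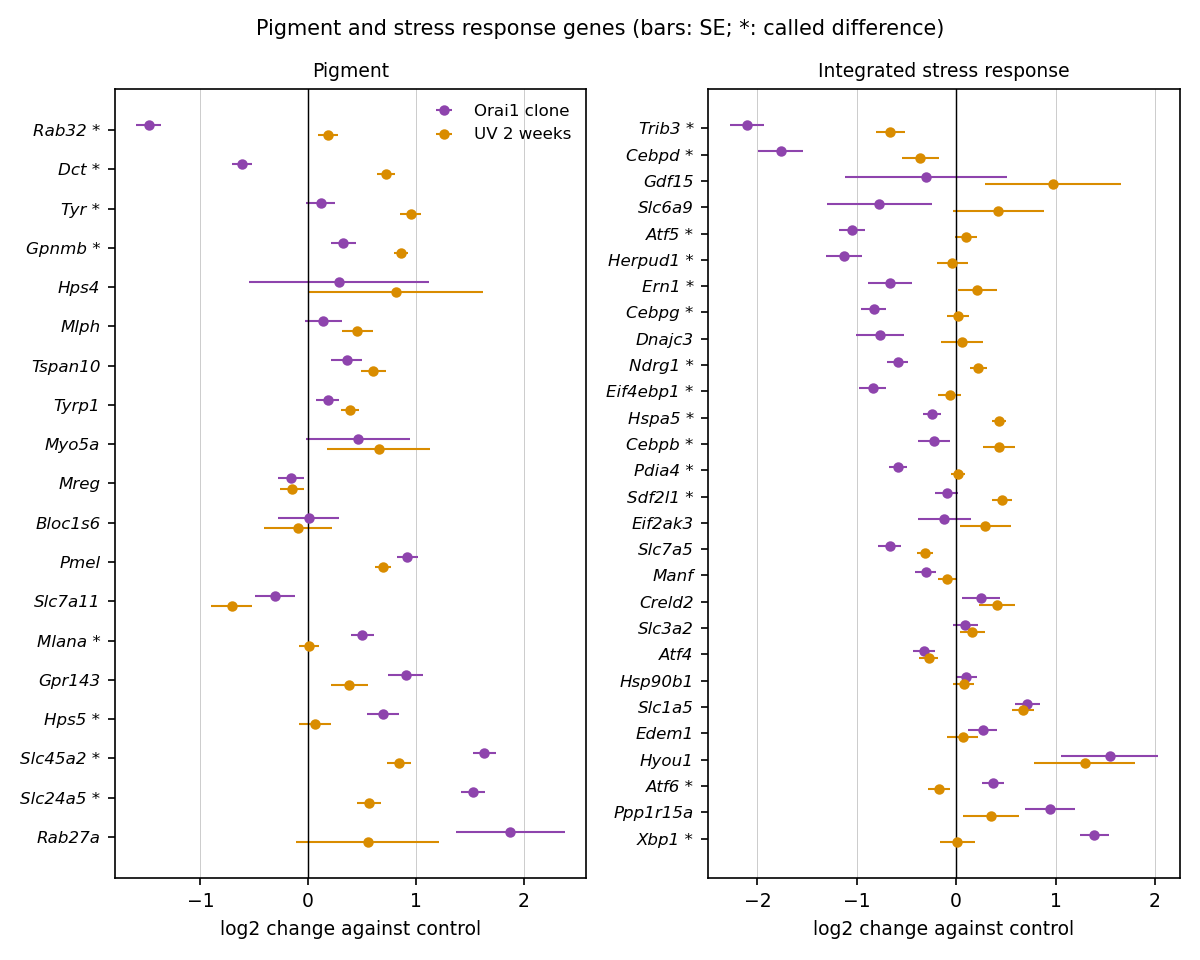
Deposited log2 changes against control in the Orai1 clone (purple) and after 2 weeks of UV (orange), with SEs as bars, for pigment and integrated stress response genes with an SE of at most 1 in both tables. An asterisk marks a called difference. Dct and Rab32 lie left of 0 in the clone and right of it after UV, Slc45a2 and Slc24a5 lie right of 0 in both, and Xbp1 lies to the right in the clone alone.

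Other chaperones and amino acid genes held fewer calls. Of 20 heat shock genes 4 were higher and 1 lower: the small heat shock proteins Hspb8 (2.54 ± 0.63) and Hspb6 (1.69 ± 0.60), the co-chaperone Dnaja1 (0.81 ± 0.15) and Hsph1 (0.58 ± 0.16), with Hspa4 lower (-0.50 ± 0.13). Hsph1 changed by -0.12 ± 0.12 in the clone and by -0.70 ± 0.11 after UV, so it differed through UV. Of 17 tRNA synthetases 1 was higher, Dars (0.60 ± 0.20), and 0 lower. Of 12 genes of serine, proline and one-carbon metabolism, 1 was higher and 1 lower, the latter Aldh18a1 (-0.66 ± 0.15).

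Genes of the antioxidant factor NRF2 were called on both sides, with 5 of 23 higher and 3 lower (median 0.21). Against control 8 were higher and 3 lower in the clone, and 0 higher and 2 lower after UV. Nqo1, a quinone reductase and standard NRF2 target, was called higher with an SE above 1. Gclm, a subunit of the enzyme that starts glutathione synthesis, changed by 0.96 ± 0.18 in the clone and by -0.19 ± 0.21 after UV (difference 1.15 ± 0.28, 2.22-fold), and by 1.62 ± 0.20 at 5 weeks of UV. Tkt, transketolase, differed by 0.73 ± 0.14, Sqstm1, the autophagy receptor p62, by 0.39 ± 0.11 and the ferritin chain Fth1 by 0.28 ± 0.10. Ugdh (-0.95 ± 0.17), the metallothionein Mt1 (-0.38 ± 0.13) and Nfe2l2, which encodes NRF2 itself (-0.47 ± 0.11), were lower. At 5 weeks the deposited change of Sqstm1 was 1.71 ± 0.17 and that of Fth1 1.31 ± 0.12, above the clone's 0.31 ± 0.08 and 0.23 ± 0.08. Among 14 glutathione transferases 3 were higher and 0 lower: Gstt3 (1.501 ± 0.36), Gstm2 (0.75 ± 0.22) and Gstm4 (SE above 1). The Gstm genes are near-identical neighbours whose reads may have been split, which makes both values uncertain.

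Of 25 sterol synthesis genes compared, 3 were higher in the clone and 0 lower, with a median of 0.29, and 1 was called at an adjusted p under 0.01. In the clone 12 were called higher and 0 lower against control, and after UV 2 and 0. They included Fdps, farnesyl diphosphate synthase (1.35 ± 0.15 in the clone, 0.25 ± 0.17 after UV, difference 1.10 ± 0.23, 2.15-fold), and Mylip, which degrades the LDL receptor (1.08 ± 0.36). Fdps had a deposited change of 1.29 ± 0.19 at 5 weeks of UV, near that of the clone. Insig1, which holds the pathway's activator in the endoplasmic reticulum, was higher than control in both (1.18 ± 0.14 and 0.68 ± 0.14), and the difference of 0.50 ± 0.19 did not pass. None of 15 fatty acid synthesis genes was called (0 higher and 0 lower), and of 9 genes of cholesterol efflux and lipases Lipg and Lipa (0.40 ± 0.13) were higher.

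In the lysosome list 4 of 26 were higher and 3 lower. Of 14 genes named as proton pump subunits or accessory proteins, in the list or not, 2 were higher and 4 lower (42.9% called). They were grouped by name after the values were seen. Atp6v1h was 3.31-fold higher (1.73 ± 0.26). The lower ones included Atp6v1f (-0.75 ± 0.12), Atp6v1b2 (-0.68 ± 0.19) and Atp6v0b (-0.65 ± 0.19). Sgsh, a sulphatase, was higher (0.63 ± 0.20) and Lamp1, a membrane glycoprotein, lower (-0.55 ± 0.15). Of 59 nuclear genes of the respiratory chain, 3 were higher and 4 lower, shares near those over all genes. The lower ones included Ndufb3 (-0.57 ± 0.20) and 3 subunits of cytochrome c oxidase. Cox7b changed by -1.69 ± 0.11 in the clone and by 0.55 ± 0.09 after UV (difference -2.24 ± 0.14, 4.72-fold), Cox8a differed by -0.80 ± 0.16 and Cox4i1 by -0.68 ± 0.14. Uqcrb (0.83 ± 0.23) and Ndufa12 (0.78 ± 0.17) were higher. Of 13 genes on mitochondrial DNA, mt-Nd6 (-0.80 ± 0.14), mt-Nd2 (-0.68 ± 0.14) and mt-Nd5 (-0.67 ± 0.21) were lower and mt-Cytb higher (0.40 ± 0.14). The median of these 13 genes had the other sign than most of the calls, at 0.40, with 9 of 13 differences positive.

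Genes of the response to DNA damage were called at shares on either side of the 13.2% over all genes. Of 26 genes of UV damage repair 2 were higher and 0 lower (7.69% called), and the median was 0.08. Xpc, which finds UV lesions, changed by 0.70 ± 0.17 in the clone and by -0.18 ± 0.19 after UV (difference 0.87 ± 0.25), and Hus1, of the checkpoint clamp, by 0.86 ± 0.12 and -0.29 ± 0.11 (difference 1.15 ± 0.17, 2.22-fold). After UV none of the 26 was called against control in either direction (0 higher, 0 lower). Of 18 p53 targets and regulators (16.7% called) 1 was higher, Mdm2 (0.50 ± 0.13), and 2 lower, Eda2r (-4.40 ± 0.57) and Ddit4. Cdkn1a, the p53-induced inhibitor of cyclin-dependent kinases, was not called, at -0.29 ± 0.28. Of 31 cell cycle genes 3 were higher, Cenpf (0.71 ± 0.20), Mcm6 (0.53 ± 0.16) and Top2a (0.47 ± 0.16), and 2 lower, Tk1 and Cdkn1b (-0.66 ± 0.14). Tk1, thymidine kinase, changed by -0.12 ± 0.11 in the clone and by 0.58 ± 0.08 after UV. Of 7 BCL2 family genes, the survival factor Bcl2l1 was lower (-1.13 ± 0.14), as was Bnip3, and Mcl1 higher (0.47 ± 0.16).

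As checks of the samples, 11 genes often taken as stable were compared, of which 1 was higher, Eef2 (0.70 ± 0.14), and 1 lower, Pgk1 (also in the glycolysis list), with a median of 0.09. Of the melanocytic markers, Tyr, Tyrp1, Dct, Pmel, Mlana, Gpnmb and Mitf had rows of their own in both tables. Sox10, also listed as a melanocytic marker, is not described here. Markers of other cell types were mostly without a row: 2 of 13 immune markers could be compared, 1 of 10 fibroblast, 0 of 8 endothelial and 1 of 10 keratinocyte markers. Postn was called, as above. The immune marker Lyz2, a lysozyme of macrophages, was called higher against control in the clone, where its change was 2.78 ± 0.64, beside 0.38 ± 0.94 after UV, but the difference did not pass. Those of Coro1a and Sfn did not pass. Whether other cells had a part in any difference was not tested.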

How the data were processed

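RNA-seq libraries of 4 B16N samples, 1 per group, were compared by the authors, who deposited a table per comparison with control. Per the file headers, the deposited columns are the symbol, log2 fold change, test statistic (a score) and p-value. GRCm38 is named in the submitters' processing notes, while aligner, counting and test are not given in the sources used here. Without counts in the tables, the depth per sample is unknown.

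The deposited log2 fold changes have the control in the numerator: all 1357 symbols with a row in a single mouse table had negative values and 0 positive ones. Turning the sign rests on these values and not on a stated definition. Deposited p-values matched two-sided normal p-values of the scores within 5.0e-08, and the SE is the ratio of log2 fold change to score. Each table had 1 nameless row, and the clone's had 3 with no p-value, all left out. The difference of the 2 changes was tested with a two-sided normal test, squared SEs added, and Benjamini-Hochberg adjustment over all 10218 genes. The control's error thus enters with each change. Changes against control were called from the deposited p-values, adjusted over 15041 and 14648 rows. Symbols that share exact values with another symbol, of a related gene or not, were left out of the difference. Symbols could not be checked against a sequence.

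The genes compared and the 43 gene lists were chosen with earlier results of these data known, so their counts are descriptions. Named genes were the called Ca2+ entry, store and calcineurin genes with Orai, Stim and Saraf, the 15 largest differences in each direction with an SE of at most 1, up to 4 called members per list, and the 10 largest in each direction called with opposite signs against control. Further list members, called or not, were named after their values were seen. No size is given where the SE of the difference is above 1. The calculation was run on simulated data with planted differences and independent normal errors of the same SEs. That run checks the calculation alone and cannot show how far calls from single libraries hold. Alternatives were fold minimums of 2 and 1.5, an adjusted p under 0.01, SE limits of 0.5 and 0.3, shared symbols included, the median set to 0, the control's covariance taken off, and Bonferroni adjustment. A planned count of promoter motifs was not made, since mouse sequences were not used here. Python 3.11.15, numpy 2.4.6, pandas 2.3.3, scipy 1.17.1 and matplotlib 3.10.9 were used.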

Additional observations from a re-analysis of the deposited data

Results flagged for a closer look

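Symbols with a row in the deposited table of the clone and none in that of 2 weeks of UV could not enter the comparison. There were 936 of them, and 875 of the 936 shared values with another symbol, so they are not 936 separate measurements. Of the 936, 36 were called against control in the clone, beside 10.3% called higher over all rows for the clone. Values of their own were held by 30 of the 36. All 36 were higher, a direction that the choice of rows fixes, since the sign of the tables was read from rows of this kind. Conversely, 543 symbols had a row for UV alone, of which 539 shared values with another symbol. Of the 543, 0 were called at an adjusted p under 0.05 from the deposited p-values. The 36 are listed because the comparison does not use their rows, and nothing is read from their direction. They include Tram1l1, Krt78, a keratin, Fkbp11, a prolyl isomerase of the secretory pathway, Oca2, a melanosome membrane protein, and the basement membrane genes Col4a2 and Lamb1. All 30 had an SE above 1, so no size is given, and these names were chosen after their values were seen.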

How the results depend on the processing

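Of 1351 called genes, a fold minimum of 2 left 486 (185 higher and 301 lower), an adjusted p under 0.01 left 900 and Bonferroni adjustment 400, and taking off the covariance of the common control raised the number to 2381 (1046 higher and 1335 lower). The fold minimum of 1.5, both SE limits, the shared symbols and the median set to 0 gave between 1017 and 1646. Among listed genes, 165 were called, 74 with a fold minimum of 2 and 67 with Bonferroni adjustment. In the clone against control 3305 were called, and 1021 of at least 2-fold, where the share of higher calls was 56.9% in place of 47.0%. After UV, 1124 were called, 735 at an adjusted p under 0.01 and 51 of at least 2-fold, of which 64.7% were higher in place of 40.7%. Fewer genes follow from the stricter rules themselves. The 3 alternatives run for single named genes could hardly reverse a direction, and none reversed. Shared symbols and the covariance leave each difference as it is, and setting the median to 0 takes off only -0.018. Of 161 named genes, 159 were called, nearly all of them named for that, and taking off the covariance can only lower the SE. The 1 change of call was that of Saraf, which passed with the covariance taken off. The stricter rules were not applied to single named genes. Of the list medians, 11 moved by more than 0.1 with an SE limit of 0.5 and 18 with shared symbols included. With the SE limit 4 changed sign: Wnt (0.43 to -0.16), Ca2+ entry (0.0996 to -0.094), fatty acid synthesis (0.14 to -0.0047) and cholesterol efflux (0.11 to -0.034). With shared symbols 5 changed sign: Wnt (-0.014), Ca2+ entry (-0.094), early response (0.036 to -0.069), BCL2 family (0.18 to -0.25) and keratinocyte markers (-0.13 to 0.078). With the median set to 0 that of pigment genes went from -0.011 to 0.0072. Counts of single lists moved by more than 1.5 times in 23 of 43 lists with a fold minimum of 2, and in 33 with Bonferroni adjustment. No paired analysis was possible because each group has 1 sample, and leaving out a replicate was not possible for the same reason. The planned promoter motif count was not run. Depth is unknown, and the SEs are those of the authors' test, which cannot hold variation between cultures.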

Other observations

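Some gene families outside the lists, grouped by their names after the values were seen, are given as values without a test, beside shares of 5.25% higher and 7.98% lower over all genes. Of 12 tubulin genes 5 were lower in the clone than after 2 weeks of UV and 1 higher. Tubb3, a beta-tubulin best known from neurons, changed by -1.67 ± 0.19 (SE) in the clone and by -0.02 ± 0.15 after UV (difference -1.65 ± 0.24), and Tubb2b by -1.36 ± 0.20 and 0.01 ± 0.17. Tuba4a was the 1 higher (SE above 1). Of 47 protocadherins, adhesion proteins of clustered genes whose reads may be split among neighbours, 8 were lower and 2 higher, among the lower ones Pcdhb16 (-1.34 ± 0.21) and Pcdhb20 (-1.55 ± 0.50). Of 23 mitochondrial import genes 4 were lower and 1 higher. Tomm20, a receptor of the outer membrane, differed by -1.15 ± 0.13 and Timm8b by -1.21 ± 0.15, whereas Timm17a, of the inner membrane channel, differed by 1.10 ± 0.14. Among 40 DEAD and DEAH helicases 6 were higher and 1 lower, with Ddx56 at 1.11 ± 0.22. Of 59 cytosolic ribosomal protein genes 3 were higher and 4 lower, of 25 proteasome subunits 2 and 1, and of 22 kinesins 0 and 0.

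In 176 called genes with an SE of at most 1, the UV change was larger than that of the clone and was itself called against control, with 79 higher and 97 lower in the clone. Lgals3, galectin-3, a glycan-binding protein, was higher than control in both, by 0.92 ± 0.35 in the clone and 2.29 ± 0.28 after UV (difference -1.37 ± 0.45). Fam162a, a mitochondrial protein induced by hypoxia, changed by -0.25 ± 0.19 and 1.08 ± 0.29, and Ahnak2, a large scaffold protein, by -0.58 ± 0.15 and 0.85 ± 0.12. Among genes lower after UV, Hdac9, a histone deacetylase, changed by 0.60 ± 0.42 in the clone and by -1.83 ± 0.62 after UV (difference 2.43 ± 0.75). Trps1, a transcriptional repressor, changed by 0.16 ± 0.15 and -0.83 ± 0.16. Cyp26b1, which breaks down retinoic acid, was lower than control in both, by -0.37 ± 0.10 and -1.34 ± 0.11 (difference 0.96 ± 0.15). These genes were chosen after their values were seen.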
